A study of Mus musculus with 4 samples.

Results

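Follicular B-2 cells with little Cr2 message were 3636 of the 32603 cell barcodes of 2 single-cell libraries of peritoneal cells, 2489 of 22516 in the KO library and 1147 of 10087 in the WT library. They were chosen by their own counts of unique molecular identifiers (UMIs, each standing for 1 captured transcript). A barcode had to carry at least 200 genes, under 10% mitochondrial UMIs, at least 3 UMIs of Cd79a, at least 1 UMI of Fcer2a and 0 or 1 UMI of Cr2. It also had to carry no UMI of the B-1 genes Bhlhe41, Zbtb32 and Zcwpw1, nor of Cd3e, Cd3d and Cd3g. These 9 genes are described below and support nothing.

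The cells came from KO mice and from WT mice, and both groups were fed a high-fat diet from 4 weeks of age for 3 months. Cells were lavaged from the peritoneal cavity with serum-free medium and CD45+ cells were sorted by flow cytometry. Each genotype had 1 expression library and 1 library of B-cell receptor (BCR) transcripts from the same barcodes. The labels give neither the number of mice behind a library nor their strain or sex, so pooling is unknown. With 1 library per genotype there is no replicate check: no test across animals was possible, no p-value is given, and every interval below is a 95% interval for counting error only.

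Follicular B cells are the recirculating B-2 cells of blood, spleen and lymph node. They carry IgM together with IgD, the low-affinity IgE receptor CD23 (the product of Fcer2a) and the complement receptor CR2, which lowers the amount of antigen a B cell needs to respond. In the peritoneal cavity they live beside B-1 cells, a self-renewing population that makes natural IgM and carries little CD23 and IgD.

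The receptors that paired the barcodes are the sequences to look at first, because the share of barcodes in clones differed widely between the libraries. A clone is defined here as barcodes of 1 library with the same V gene, J gene and CDR3 nucleotides in both the heavy and the light chain. Among follicular barcodes with exactly 1 heavy and 1 light chain, 875 of 1653 in KO (52.9%, exact Clopper-Pearson interval 50.5 to 55.4%) and 40 of 935 in WT (4.28%, 3.07 to 5.78%) belonged to a clone of 2 or more barcodes. The heavy-chain CDR3 is printed for the 3 clones of exactly 2 follicular barcodes in each library that were deepest in UMIs. Capitals mark the codons of the bordering cysteine and tryptophan.
KO, IGHV5-17 with IGHJ2: TGTgcaactgggtactactttgactacTGG
KO, IGHV1-82 with IGHJ3: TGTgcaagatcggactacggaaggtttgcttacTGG
KO, IGHV1-26 with IGHJ2: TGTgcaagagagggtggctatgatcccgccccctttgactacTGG
WT, IGHV1-50 with IGHJ3: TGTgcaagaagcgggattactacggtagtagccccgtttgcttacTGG
WT, IGHV5-9-1 with IGHJ1: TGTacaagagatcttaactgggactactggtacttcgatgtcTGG
WT, IGHV3-1 with IGHJ2: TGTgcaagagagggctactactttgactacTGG
The mates of such a pair resembled each other in depth. The KO pairs had 5649 and 5072 UMIs with IGHV5-17, 5710 and 5021 with IGHV1-82, and 4538 and 4053 with IGHV1-26. The WT pairs had 3499 and 2692 UMIs with IGHV1-50, 3354 and 2490 with IGHV5-9-1, and 2591 and 2188 with IGHV3-1.

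Clones of exactly 2 made most of the difference. They held 769 of the 1653 KO follicular barcodes (46.5%) and 31 of the 935 WT ones (3.32%), while clones of 3 or more held 106 (6.41%) in KO and 9 (0.963%) in WT. The ratio of the overall clone shares, KO over WT, was 12.4 (interval 9.11 to 16.8). Other B cells of the same libraries differed in the same direction. The clone share was 66.1% in KO and 15.7% in WT for B cells with neither Fcer2a nor a B-1 gene, and 68.6% and 39.7% for those with a B-1 gene and no Fcer2a.

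Barcodes in KO clones of 2 were also shallower and came with a mate of like depth. Their median was 1889 UMIs, against 2942 UMIs in KO barcodes that shared their receptor with no other. In WT the same medians were 2490 and 3800 UMIs. The UMI totals of mates lay within 1.5-fold of each other in 90.3% of KO and in 81.8% of WT clones of 2 that held a follicular barcode, against 57.3% and 44.7% for unrelated barcodes of the KO and the WT library. Summed, the mates had a median of 3646 UMIs in KO and 4704 UMIs in WT. Mates' barcode sequences were not neighbours: they differed at no fewer than 5 bases in KO and 6 in WT, with a median of 12. How many of these pairs were 1 cell read under 2 barcodes was not tested. Counting each clone of exactly 2 as 1 cell left 107 of 1392 KO cells (7.69%) and 11 of 923 WT cells (1.19%) in clones, a ratio of 6.45. This treatment of the pairs was added after the data were seen.

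**Figure D1:**
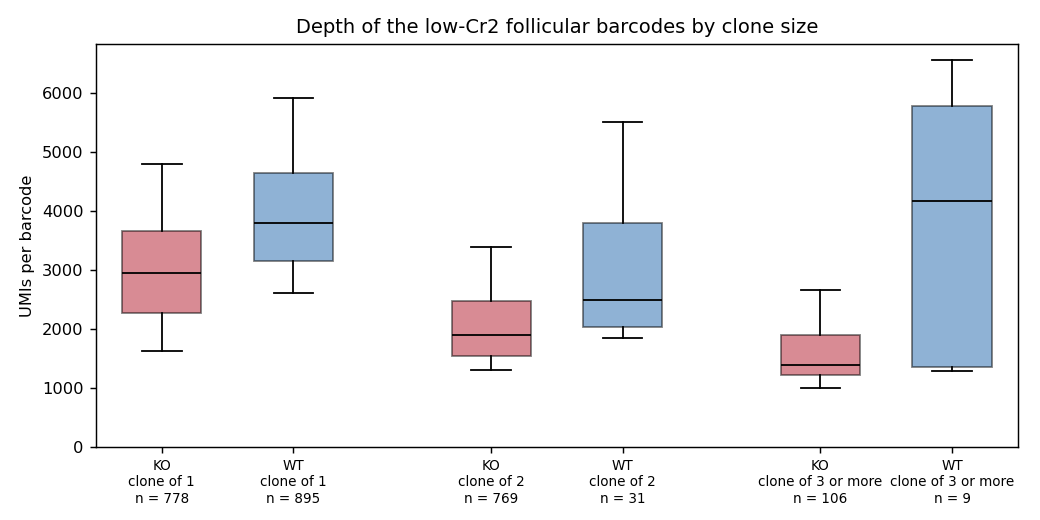
UMIs per follicular barcode (vertical axis, linear scale) by the number of barcodes that share its receptor in its library, KO left of WT; boxes are quartiles and whiskers the 10th and 90th percentiles. KO barcodes in clones of 2 had a median of 1889 UMIs, against 2942 UMIs in KO barcodes with a receptor of their own.

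The other barcode of such a clone often met the follicular rule as well. The 595 KO clones of 2 that held a follicular barcode, with both barcodes kept, gave 768 mates, of which 346 were follicular barcodes themselves and 308 carried neither Fcer2a nor a B-1 gene. Another 34 carried a B-1 gene without Fcer2a, 13 had 2 or more Cr2 UMIs, 23 carried both kinds of gene and 44 fell outside the B-cell rule. In WT, 22 such clones gave 29 mates, with 14 follicular barcodes and 10 carrying neither. The largest clones that held a follicular barcode held only 1 and also held barcodes with a B-1 gene and no Fcer2a. The largest 2 of KO are shown because their heavy chains differ at 1 base, G13A counted from the first base of the CDR3, between the clone of 105 and the clone of 32; the third is the largest with IGHV12-3 in WT.
KO, IGHV11-2 with IGHJ1, 105 barcodes: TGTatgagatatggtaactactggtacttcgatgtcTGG
KO, IGHV11-2 with IGHJ1, 32 barcodes, and WT, 22 barcodes: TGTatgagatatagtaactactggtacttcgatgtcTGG
WT, IGHV12-3 with IGHJ4, 10 barcodes: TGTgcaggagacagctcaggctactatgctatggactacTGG
Of the 105 barcodes, 57 carried a B-1 gene without Fcer2a and 1 was a follicular barcode. The other IGHV11-2 receptor had 15 B-1 and 1 follicular barcode among 32 in KO, and 7 and 1 among 22 in WT. The IGHV12-3 clone had 6 and 1. Both V genes are known in mouse for B-1 receptors that bind phosphatidylcholine. Only 4 of the 1653 KO and 5 of the 935 WT follicular barcodes had a receptor that also occurred in the other genotype's library.

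The label was checked on genes that the rule did not use. Ighd, the IgD constant region, stood at 210 counts per 1000000 UMIs (CPM, over the summed UMIs of all barcodes of a group) in KO and 216 in WT follicular cells, against 47.2 and 30.1 CPM in KO and WT cells with a B-1 gene and no Fcer2a (called B-1 cells from here on). Vpreb3, a relative of the surrogate light chain, stood at 128 and 138 CPM in KO and WT follicular cells and at 10.8 and 4.62 CPM in KO and WT B-1 cells. Ebf1, a transcription factor of B-cell commitment, stood at 478 and 501 CPM against 260 and 235 CPM. All of these markers were on the follicular side in both libraries. A UMI of Ighd was found in 42.2% of KO and 55.5% of WT follicular barcodes, and in 20.2% and 20.9% after thinning each barcode to 1000 UMIs. T cells, which should lack it, had one in 1.44% and 0.357% of barcodes.

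Receptors for homing to lymphoid tissue gave a mixed picture. Ccr7, which guides cells towards the T zone, stood at 913 CPM in KO and 1015 in WT follicular cells, against 213 and 237 CPM in B-1 cells. Cxcr5, the receptor for entry into follicles, did not separate them, with 101.0 and 120 CPM against 107 and 112 CPM. Fcer2a and Cr2, which the rule used, averaged 533 and 52.2 CPM in KO and 504 and 41.2 CPM in WT follicular cells.

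Markers of other B-cell states were partly absent and partly present. Rag1, part of the recombinase of developing B cells, had no UMI in either library, which allows up to 0.389 CPM in KO and 0.597 CPM in WT at 3 counts per library. Cd93, a marker of transitional B cells, stood at 0.907 and 2.19 CPM, the plasma-cell gene Jchain at 2.72 and 4.58 CPM, and the proliferation gene Mki67 at 2.07 and 0.597 CPM. Others were well expressed, as they were in B-1 cells. Cd24a, a surface protein highest in immature B cells, stood at 518 CPM in KO and 512 CPM in WT follicular cells, against 427 and 424 CPM in B-1 cells. The costimulatory gene Cd86 stood at 72.9 and 71.2 CPM, against 60.8 and 55.3 CPM, and Xbp1, a transcription factor of secretory cells, at 59.6 and 78.4 CPM, against 55.7 and 60.8 CPM. Vpreb3 is also a gene of transitional B cells, so its level does not tell these from follicular cells. Of the marginal zone genes, Cd9 stood at 43.0 CPM in KO and 31.2 CPM in WT follicular cells, and at 122 and 139 CPM in B-1 cells. Mzb1, a chaperone of IgM assembly, was at 541 and 431 CPM against 965 and 847 CPM. Dtx1 stood at 22.9 and 26.1 CPM against 36.7 and 29.7 CPM. S1pr3 was low in all, at 1.04 and 0.199 CPM against 3.14 and 2.69 CPM. Cd1d1 went the other way, at 24.5 and 29.8 CPM against 14.3 and 13.1 CPM.

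**Figure D2:**
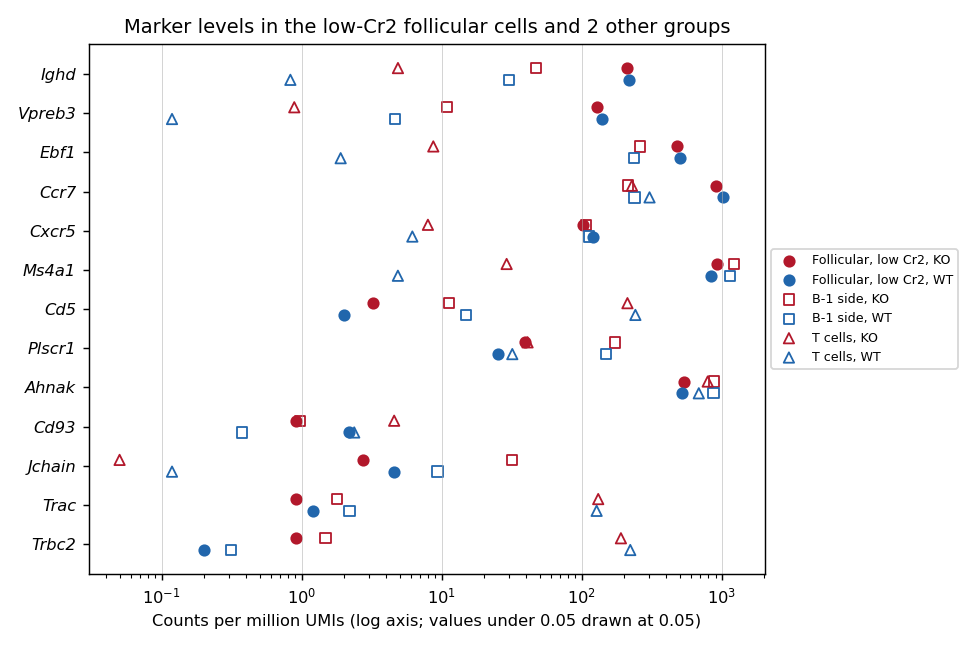
Level of each marker gene (CPM, log scale) in low-Cr2 follicular cells (filled circles), B-1 cells (open squares) and T cells (open triangles), KO in red above WT in blue. Ighd, Vpreb3, Ebf1 and Ccr7 lie higher in follicular than in B-1 cells of both libraries, while Cxcr5 lies at about 100 CPM in all 4 groups of B cells.

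Most follicular barcodes sat close to the edge of the rule. In KO 1528 of them (61.4%) and in WT 526 (45.9%) had exactly 1 Fcer2a UMI, and 5157 KO and 1211 WT barcodes met every other condition with no Fcer2a UMI. Cr2 was at 0 in 2086 KO (83.8%) and 940 WT (82.0%) follicular barcodes and at 1 in 403 (16.2%) and 207 (18.05%), while 86 KO and 67 WT barcodes failed only by having 2 Cr2 UMIs. A single UMI of a B-1 gene excluded 435 KO and 225 WT barcodes. Cd79a at its minimum of 3 was found in 86 KO and 6 WT follicular barcodes, and 59 KO and 9 WT barcodes failed only by having 2.

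The rule counts UMIs, and the libraries differed in depth. Follicular barcodes had a median of 2572 UMIs and 1148 genes in KO and of 3832 UMIs and 1561 genes in WT. At this depth they were 11.15% (10.74 to 11.57%) of the kept barcodes in KO and 11.45% (10.83 to 12.09%) in WT, a ratio of 0.974 (0.912 to 1.04), and 17.95% of KO and 18.41% of WT B cells by the Cd79a rule. The ratio was 1.08 when each barcode was thinned to 1000 UMIs, 0.694 when 2 Fcer2a UMIs were asked for, and 0.529 among barcodes of 2000 to 4000 UMIs. No direction of the follicular share can therefore be read from these libraries. B-1 cells were 22.49% of kept barcodes in KO and 30.4% in WT, and B cells with neither Fcer2a nor a B-1 gene were 23.41% and 12.37%. These groups also rest on the capture of single UMIs. B-1 cells had a median of 5328 UMIs in KO and 9020 in WT, and cells with neither had 2488 and 4273. The part of depth in these shares was not tested.

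A few follicular barcodes held most UMIs of genes listed for other cell types, but many held some. At least 1 UMI of these lists, which include Flt3, was found in 1213 KO (48.7%) and 528 WT (46.0%) follicular barcodes. At least 5 UMIs of a list of macrophage genes were found in 66 KO (2.65%) and 24 WT (2.09%) of them, and these few barcodes held 73.2% and 89.9% of all UMIs of that list, which stood at 674 CPM in KO and 1027 CPM in WT. Over all lists of other cell types, 112 KO (4.50%) and 32 WT (2.79%) barcodes reached that number. Lyz2, the lysozyme of macrophages, had a UMI in 12.8% of KO and 3.75% of WT follicular barcodes, and in 14.6% and 6.01% of T cells, which should lack it. The doublet caller Scrublet was used with a preset rate, which marked the highest scores in 17.8% of all KO and 7.12% of all WT kept barcodes. Among the marked were 197 KO (7.91%) and 15 WT (1.31%) follicular barcodes. Because the rate differed by library, these shares cannot be compared between KO and WT. A second heavy chain was found in 293 KO (13.7%) and 52 WT (4.91%) of the follicular barcodes with a receptor. Their median depths were 4325 and 7770 UMIs, against 2353 and 3774 UMIs in KO and WT barcodes with 1 heavy chain. There were 293 barcode sequences present in both expression libraries, 3 of them among the follicular barcodes of both, and none of the 79 that had a full receptor in each had the same one.

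The receptors themselves did not depend on the rule's genes and separated follicular from B-1 cells in both libraries. Receptor chains were found for 2144 KO (86.14%) and 1058 WT (92.24%) follicular barcodes. IgD was the constant region of the heavy chain in 150 of 1797 in KO (8.35%, interval 7.11 to 9.72%) and 69 of 992 in WT (6.96%, 5.45 to 8.72%), a ratio of 1.20 (0.912 to 1.58). Among B-1 cells it was 13 of 3057 in KO (0.425%) and 0 of 2118 in WT, which allows a share of up to 0.142% at 3 counts. IgM made up 91.1% and 92.2% of the follicular heavy chains. IgM and IgD are spliced from 1 transcript, and which of them a contig names depends on which was captured.

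The chains of B-1 cells were rare among follicular cells. IGHV11-2 and IGHV12-3 together were used by 11 of 1797 KO (0.612%) and 6 of 992 WT (0.605%) follicular barcodes, against 25.1% of KO and 29.8% of WT B-1 cells. Lambda light chains were on 116 of 1751 KO (6.62%) and 63 of 953 WT (6.61%) follicular barcodes, a ratio of 1.0 (0.745 to 1.35), and on 15.2% and 13.9% of B-1 cells. In both comparisons the KO and WT follicular shares were within counting error of each other and apart from both B-1 shares.

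The heavy V genes were spread widely. The IGHV1 family, the largest in mouse, was used by 58.4% of KO and 59.3% of WT follicular cells and by 32.6% and 31.8% of B-1 cells. Counting each clone only 1 time left 1450 KO and 927 WT follicular receptors, and 1832 and 1386 B-1 receptors. IGHV1-26 then led with 97 receptors in KO (6.69%) and 65 in WT (7.01%), against 3.33% and 2.38% in B-1 cells. IGHV3-6 had 5.31% and 4.42%, against 3.88% and 3.75%. IGHV12-3 had 0.207% and 0.431%, against 7.31% and 10.9%, so the B-1 cells remained apart with 1 receptor per clone.

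Among light chains, IGKV6-23 was used by 2.90% of KO and 3.34% of WT follicular clones and by 0.928% and 0.722% of B-1 clones. IGKV10-96 was used by 4.76% and 7.34%, against 3.77% and 3.61%. The heavy J gene IGHJ1 was used by 16.8% of KO and 18.9% of WT follicular clones, against 21.8% and 25.7% of B-1 clones. Over barcodes it was 16.8% and 19.1% of follicular and 35.3% and 38.7% of B-1 cells, so the distance was larger where large clones counted fully. IGHJ2 and IGHJ3 did not separate the groups by clone: IGHJ2 had 35.0% and 37.4% in follicular and 37.3% and 33.5% in B-1 clones, and IGHJ3 had 20.9% and 18.8%, against 18.5% and 19.3%. Heavy CDR3s had a median of 14 codons in follicular cells of either library (mean 13.7 ± 2.53 in KO and 13.8 ± 2.57 in WT, SD over barcodes) and of 13 in B-1 cells.

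**Figure D3:**
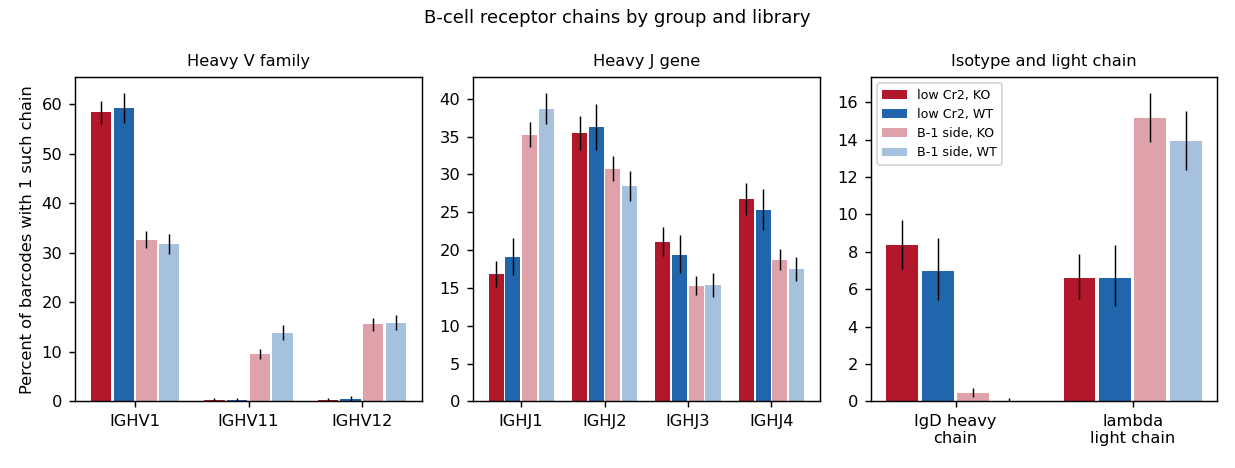
Share of barcodes with 1 such chain (percent) that used 3 heavy V families, the 4 heavy J genes, an IgD heavy chain or a lambda light chain, in low-Cr2 follicular and B-1 cells, KO left of WT; lines on the bars are exact 95% intervals for counting error. KO and WT follicular cells lie near each other in IgD (8.35% and 6.96%) and lambda (6.62% and 6.61%) and away from the B-1 cells of both libraries, while IGHJ2, IGHJ3 and IGHJ4 lie closer to them.

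Between the genotypes, KO follicular cells had less Irf2bp2, Irf1, Anxa6 and Sfr1 and more Trim11, Trim12a and Socs3 message than WT follicular cells. Of 5736 genes with at least 20 CPM in either library, 58 (1.01%) were at least 1.5-fold higher in KO and 80 (1.39%) were at least 1.5-fold lower. Immunoglobulin V genes, of which 129 were measured and which follow the clones sampled, made up 18 of the higher and 30 of the lower genes. Leaving out the barcodes with 5 or more UMIs of another lineage, a step added after the data were seen, left 50 higher (0.875%) and 70 lower (1.23%) of 5714. The median over all genes was -0.03 on the log2 scale.

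Irf2bp2, a co-repressor that binds the interferon regulatory factor IRF2, had the lowest ratio of the named genes apart from Slpi, Prg4 and Cxcl2, which are described below. It stood at 79.1 CPM in KO and 193 CPM in WT, a ratio of 0.411 (0.370 to 0.455), and had a UMI in 474 of the 2489 KO and 517 of the 1147 WT follicular barcodes. The share of barcodes with a UMI was 19.0% in KO and 45.1% in WT, and 6.35% and 15.9% after thinning to 1000 UMIs. The difference was not particular to these cells: the ratio was 0.353 in B-1 cells, 0.396 in cells with 2 or more Cr2 UMIs and 0.396 in T cells.

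Irf1, a transcription factor of the interferon response, stood at 49.99 CPM in KO and 96.7 CPM in WT, a ratio of 0.517 (0.451 to 0.592). Its ratio was 0.244 in cells with 2 or more Cr2 UMIs, 0.788 in B-1 cells and 0.598 in T cells. In B cells with neither Fcer2a nor a B-1 gene it was 0.648. Sfr1, a partner in homologous recombination, stood at 124 and 217 CPM, a ratio of 0.573 (0.525 to 0.626). The level of Anxa6, an annexin that binds membranes when calcium is present, was 85.7 and 150 CPM (0.570, 0.513 to 0.634). Alad, an enzyme of haem synthesis, stood at 28.2 and 51.7 CPM (0.546, 0.454 to 0.656). In B-1 cells the ratios were 0.514 for Sfr1, 0.691 for Anxa6 and 0.624 for Alad, and in T cells 0.666, 0.831 and 0.891. Irf1, Sfr1, Anxa6, Alad and Irf2bp2 stayed at least 1.5-fold lower in KO under every one of 14 alternative treatments of the cells and counts. Of the 14, dropping the minimum CPM could not change a ratio. Totals without immunoglobulin, mitochondrial and ribosomal genes moved all ratios by the same factor. The tallies of treatments given here and below include both.

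The remaining lower genes were less firm. Ciapin1, which works in iron-sulphur cluster assembly, stood at 34.8 CPM in KO and 55.3 CPM in WT (0.630) and held in 13 of the 14 treatments. Id3, an inhibitor of E-protein transcription factors, stood at 49.0 and 76.0 CPM (0.644) and held in 10. Tiparp, an ADP-ribosyltransferase, stood at 34.7 and 53.3 CPM (0.651) and also held in 10.

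Slpi, Prg4, Cxcl2 and Fn1, genes of macrophages, were lower in KO only through a few WT barcodes. Slpi stood at 14.4 CPM in KO and 108 CPM in WT, but 98.0% of its WT UMIs lay in 1 barcode, and without barcodes of other lineages its ratio was 4.64. Prg4 had 14.0 and 74.4 CPM, with 51.1% of WT UMIs in 1 barcode, and a ratio of 6.04 without those barcodes. Fn1 went the same way, with 32.1 and 56.1 CPM, 48.9% in 1 barcode and 10.4 without. Cxcl2 had 21.9 CPM in KO and 57.1 CPM in WT, and 4.37 CPM in KO and no UMI in WT without those barcodes.

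Among the higher genes, members of the tripartite-motif family, many of which act as ubiquitin ligases, included Trim11 and Trim12a. Trim11 stood at 119 CPM in KO and 67.6 CPM in WT, a ratio of 1.76 (1.55 to 1.99), with a UMI in 702 KO and 280 WT barcodes. Trim12a stood at 74.6 and 43.8 CPM, 1.70 (1.46 to 2.0), and both held in all 14 treatments. In B-1 cells the ratio was 1.66 for Trim11 and 1.72 for Trim12a, and in T cells 1.39 and 1.74. Trim34a stood at 79.7 and 50.5 CPM (1.58) but held in 10. Trim12a and Trim34a have close relatives in the genome and reads may be shared among them. Of 13 measured genes of the family 3 were higher, beside 1.01% of all genes, 0 were lower, and the median was -0.07.

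Socs3, a feedback inhibitor of cytokine signalling, stood at 86.1 CPM in KO and 50.7 CPM in WT, 1.70 (1.47 to 1.97). Its ratio was 1.42 in cells with 2 or more Cr2 UMIs, 1.15 in B-1 cells and 0.966 in T cells. It was 1.37 in B cells with neither Fcer2a nor a B-1 gene, and 1.15 in follicular cells when 1 barcode was kept per clone. Zeb2, a zinc-finger repressor, stood at 58.8 and 36.0 CPM (1.63) and held in 12 treatments. Btla, an inhibitory receptor of lymphocytes, stood at 53.9 and 34.0 CPM (1.58, 1.32 to 1.90) and had 2.84 in B-1 cells. S100a4, a calcium-binding protein, stood at 70.3 and 35.6 CPM (1.98). Its ratio was 1.71 in cells with 2 or more Cr2 UMIs, 0.981 in B-1 cells, and 1.18 in follicular cells with 1 barcode per clone. In B cells with neither Fcer2a nor a B-1 gene it was 1.38. Ass1, an enzyme of arginine synthesis, stood at 83.9 and 53.9 CPM (1.56) and held in 9 treatments.

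Genes of myeloid, NK and T cells made up the rest of the named higher genes. Ccl5, a chemokine of T and NK cells, stood at 106 CPM in KO and 28.0 CPM in WT, and at 13.9 and 1.26 CPM without barcodes of other lineages. Ifitm2, an interferon-induced membrane protein, stood at 71.9 and 18.7 CPM, and at 8.17 and 2.94 CPM without them. Tmem176b (4.05 times the WT level), Ccl6 (3.62), Ifitm3 (3.6), Fcer1g (3.39) and Alox5ap (2.03) are likewise genes of myeloid cells. Without barcodes of other lineages their ratios were 2.86 for Tmem176b, 7.38 for Ccl6, 1.65 for Ifitm3, 3.16 for Fcer1g and 2.28 for Alox5ap. By their ratio alone, Ccl5, Ifitm2, Tmem176b, Ccl6, Ifitm3 and Fcer1g held in all 14 treatments, and Alox5ap in 11. Of these genes, only Tmem176b (20.4 CPM in KO, 7.14 CPM in WT) reached the 20 CPM of a called gene without barcodes of other lineages. Ccl6 then stood at 9.30 CPM in KO and 1.26 CPM in WT, and Ifitm3 at 7.61 and 4.62 CPM. Fcer1g stood at 6.62 and 2.10 CPM, and Alox5ap at 18.2 and 7.98 CPM. Lists of NK and dendritic genes stood at 59.4 and 65.0 CPM in KO and 22.9 and 18.9 CPM in WT follicular cells. Flt3 alone held 182 of the 502 KO and 84 of the 95 WT UMIs of the dendritic list. The part of RNA from other cells in the KO over WT differences of this paragraph was not tested.

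**Figure D4:**
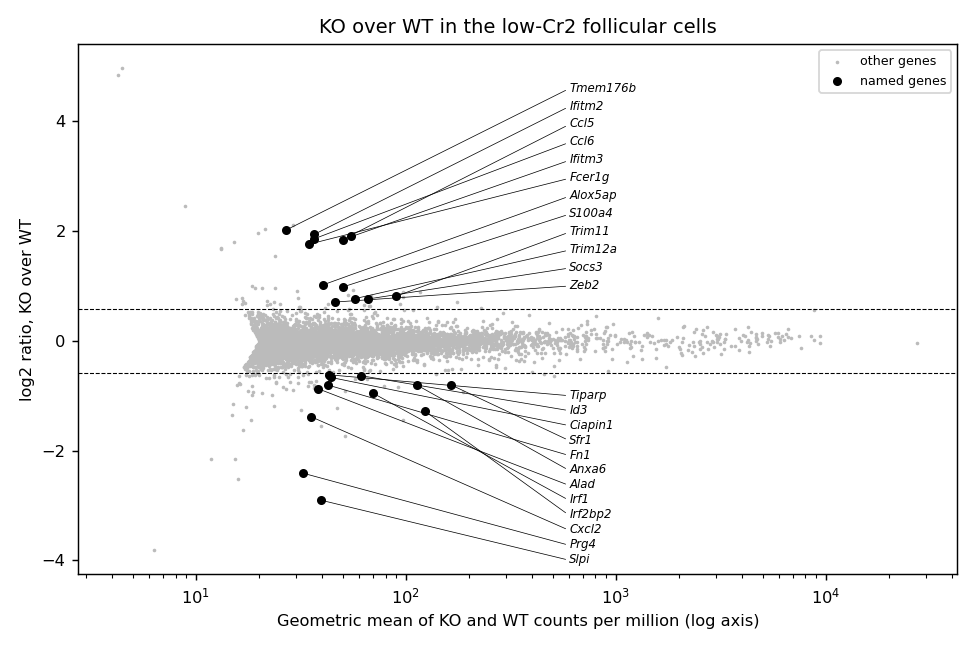
Ratio of KO over WT in follicular cells (vertical axis, log2) against the geometric mean of both levels (CPM, log scale), 1 point per gene with a UMI in both libraries; lines mark 1.5-fold. Of 5736 genes 58 lie above the upper and 80 below the lower line, with Irf2bp2 at 0.411 and Trim11 at 1.76 among the labelled genes.

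**Figure D5:**
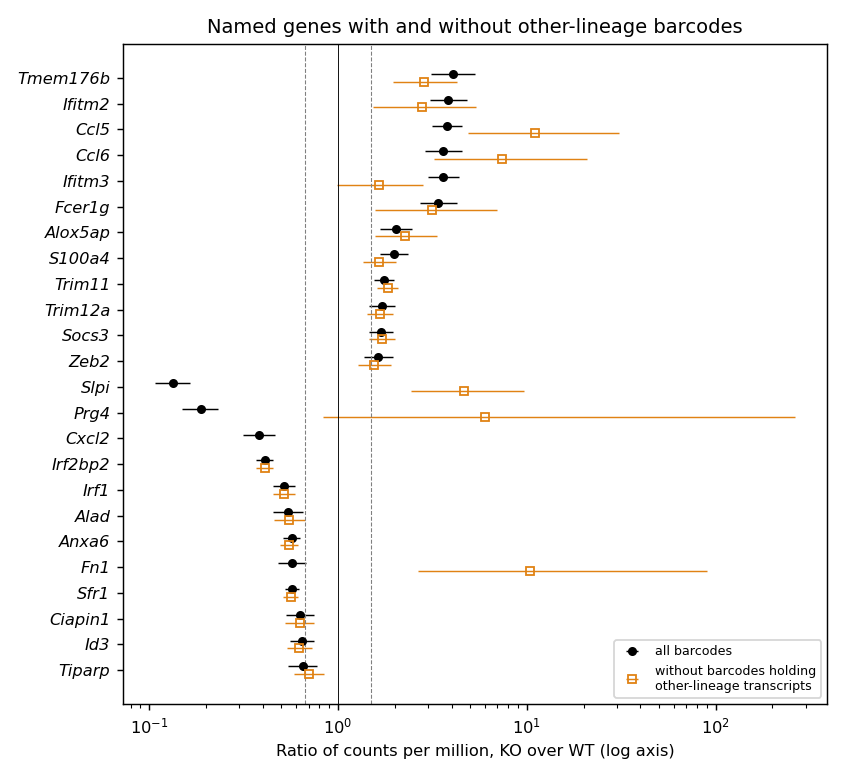
Ratio of KO over WT (log scale) of the named genes with 95% intervals for counting error, in all follicular barcodes and without those carrying RNA of other lineages. Irf2bp2, Irf1, Sfr1, Anxa6, Trim11 and Trim12a keep their place, while Slpi, Prg4 and Fn1 change side; Cxcl2 has no second point because WT had no UMI left.

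Genes of follicular identity were close to even between the genotypes. Of 20 measured, Btla alone was 1.5-fold higher, beside 1.01% of all genes, and none was lower, with a median of -0.09. The IgM Fc receptor gene Fcmr stood at 533 CPM in KO and 632 CPM in WT (0.842), Icosl, the ligand of ICOS on T cells, at 62.8 and 75.4 CPM (0.833), and Cxcr5 had a ratio of 0.841. The rule asked for no UMI of Bhlhe41, Zbtb32 and Zcwpw1 in libraries of unlike depth. The part of this in other B-1 genes was not tested. Genes of B-1 identity, a list that also holds the macrophage gene Apoe (0.694), had a median of 0.36 over 12 measured. Of these, 3 were higher, beside 1.01% of all genes, and none was lower. Those 3 were Plscr1 (1.54), a phospholipid scramblase, Anxa2 (1.59), an annexin, and Ctla4 (1.59), an inhibitory receptor at 20.9 CPM in KO and 13.1 CPM in WT. Anxa2 stood at 118 and 74.4 CPM and had a ratio of 1.47 without barcodes of other lineages, 3.29 in the UMI window and, with the direction turned round, 0.869 with thinning; it held in 8 treatments.

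Signalling genes downstream of the BCR did not pass the fold in either direction among 31 measured, with a median of -0.05. The phosphatase gene Inpp5d, which opposes PI3K, stood at 154 CPM in KO and 181 CPM in WT (0.853), and the PI3K adaptor Pik3ap1 had 0.823. Of 21 genes of PI3K, AKT and FOXO signalling, only Foxo3, a transcription factor held out of the nucleus by AKT, was past the fold. It was lower at 21.9 and 33.2 CPM (0.659), beside 1.39% of all genes. Among 17 genes of BAFF survival and NF-kB signalling none was past the fold and the median was -0.12. The BAFF receptor gene Tnfrsf13c stood at 132 CPM in KO and 192 CPM in WT (0.690), and Rel, an NF-kB subunit, at 246 and 308 CPM (0.797). Bcl2a1b, a survival gene with near-identical copies, was at 65.8 and 49.7 CPM (1.32).

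Antigen presentation was even as well. Neither the 13 genes of the MHC class II pathway (median -0.04) nor the 15 of class I (median -0.07) had a member past the fold. Ifi30, a thiol reductase of antigen processing, stood at 856 CPM in KO and 1081 CPM in WT (0.792). H2-DMb1, part of the peptide editor of class II, stood at 99.7 and 75.6 CPM (1.32), and its ratio was 1.05 without barcodes of other lineages. Of 17 genes of homing and adhesion none was past the fold (median -0.11), and of 13 activation genes none was, with Cd69 at 384 and 342 CPM (1.12).

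Interferon genes did not move as 1 group. Of 16 measured none was higher and 2 were lower, beside 1.39% of all genes, and the median was -0.04. The 2 were Irf1 and its relative Irf9 (27.7 CPM in KO and 42.0 CPM in WT, 0.660). Ly6a, the gene of Sca-1, stood at 945 and 689 CPM (1.37).

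Genes of the unfolded protein response had a median of -0.10 over 21 measured, none past the fold and 17 below the median of all genes. The chaperone gene Hspa5 stood at 360 CPM in KO and 467 CPM in WT (0.770), and the transcription factor Xbp1 at 59.6 and 78.4 CPM (0.760). Of 10 heat-shock genes 1 was lower, beside 1.39% of all genes: the chaperone Hsph1 at 28.9 and 47.9 CPM (0.602). Immediate-early genes, the quick targets of receptor signals and handling, had none of 18 past the fold and a median of 0.08. Atf3 stood at 344 and 244 CPM (1.41) and Nr4a1, which follows BCR signals, at 473 and 601 CPM (0.788).

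Genes of energy and translation were nearly level, with 1 group apart. The 13 mitochondrially encoded genes had a median of 0.19, and 12 of them lay above the median of all genes. For example, mt-Atp6, a subunit of ATP synthase, stood at 1837 CPM in KO and 1382 CPM in WT (1.33). None passed the fold. The 42 respiratory-chain genes of the nucleus had a median of -0.06 and the 40 ribosomal genes of 0.00, with none past the fold. Among 13 glycolysis genes the largest difference was that of Gapdh, at 432 and 594 CPM (0.727). Mitochondrial UMIs were 1.85% of all UMIs of KO and 1.59% of WT follicular cells, and ribosomal protein genes were 27.5% in both.

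Because clones of 2 divided the libraries, the KO follicular barcodes in clones of 2 were also set against those with a receptor of their own, within the KO library. Of 5643 genes other than immunoglobulin V genes, 245 (4.34%) differed by at least 1.5-fold, 132 of them higher and 113 lower in clones of 2. Genes of other cells were found in both directions, with more of them higher in clones of 2. Lyz2 stood at 463 CPM in clones of 2 and 120 CPM in single barcodes, Gzma, a granule protease of T and NK cells, at 35.9 and 9.0 CPM, and AY036118, an RNA from the ribosomal repeat, at 1523 and 583 CPM. Retnla, a gene of macrophages, went the other way, at 3.65 CPM in clones of 2 and 25.4 CPM in single barcodes (0.144), as did the dendritic and macrophage gene Mgl2 (0.519). Flt3 was lower too (0.602). It is in the dendritic list used above, but is not counted here as a gene of other cells. It stood at 23.6 CPM in all KO follicular cells, against 3.83 CPM in KO B-1 cells and 6.19 CPM in KO T cells. Several genes named above as higher in KO than in WT were also higher in clones of 2, with ratios of 2.87 for Ccl5, 2.70 for Ccl6, 2.48 for S100a4, 2.19 for Fcer1g, 2.18 for Ifitm2, 2.03 for Ifitm3, 1.68 for Anxa2 and 1.61 for Alox5ap. The part of the clones in those KO over WT values was not tested. Follicular markers were near even, with ratios of 0.911 for Ighd, 0.901 for Ebf1, 0.849 for Ccr7 and 0.817 for Vpreb3. The ratios of Irf1 and Trim11 were 0.967 and 0.867.

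Cells with 2 or more Cr2 UMIs, which otherwise met the same conditions, were few: 112 in KO (0.502% of kept barcodes) and 103 in WT (1.03%), a ratio of 0.488 (0.374 to 0.637). Reaching 2 UMIs depends on depth, and the KO library was shallower. After thinning to 1000 UMIs, only 10 of 21167 KO and 5 of 9798 WT barcodes met these conditions. No direction of their share can therefore be read. These cells were divided from the low-Cr2 cells on the same counts, so their genes are given as a description. Depth moved with the division: barcodes with 1 Cr2 UMI had a median of 3028 UMIs in KO and 4155 in WT, and those with 2 had 4408 and 4748. The part of depth in what follows was not tested. With the same direction in both libraries, 96 of 5575 genes (1.72%) were at least 1.5-fold higher and 79 (1.42%) at least 1.5-fold lower in low-Cr2 cells.

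Among the genes higher in low-Cr2 cells, Tagln2, an actin-binding protein, stood at 1480 CPM in low-Cr2 and 898 CPM in high-Cr2 cells of KO, and at 1637 and 808 CPM in those of WT. Myadm, a membrane-raft protein, stood at 286 and 150 CPM in KO and at 328 and 134 CPM in WT. Cd55, which speeds the decay of complement convertases on the cell surface, stood at 405 and 264 CPM in KO (1.53) and at 475 and 296 CPM in WT (1.60), and had 1.49 in KO without barcodes of other lineages. S1pr4, a receptor for sphingosine 1-phosphate, had ratios of 1.58 in KO and 2.25 in WT. Klf3, a Krüppel-like repressor, had 1.58 and 1.67, and the nuclear lamina gene Lmna had 1.58 in both.

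Among the genes lower in low-Cr2 cells, Cfp, the complement factor properdin, stood at 64.1 CPM in low-Cr2 and 153 CPM in high-Cr2 cells of KO and at 43.6 and 122 CPM in those of WT. Ccr6, the receptor for CCL20, stood at 46.0 and 91.5 CPM in KO and 46.2 and 119 CPM in WT. Bcl2a1b stood at 65.8 and 145 CPM in KO and 49.7 and 102 CPM in WT, and Ccnd2, cyclin D2, had ratios of 0.604 and 0.594. Of 13 activation genes 3 were lower in both libraries, beside 1.42% of all genes. None of the MHC class II genes was past the fold in both, with list medians of -0.19 in KO and -0.21 in WT, against -0.01 and 0.00 over all genes. Mgl2, Cd209a, Il1b, Fcer1g, Tmem176b and Ifitm3 were also lower, and did not pass the fold in both libraries without barcodes of other lineages.

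Against B-1 cells, likewise divided on the counts, 334 of 5552 genes (6.02%) were at least 1.5-fold higher and 220 (3.96%) at least 1.5-fold lower in follicular cells of both libraries. The higher ones included Satb1, a chromatin organiser, at 120 CPM in follicular and 21.7 CPM in B-1 cells of KO and at 126 and 8.97 CPM in those of WT. Neurl3, a ubiquitin ligase, stood at 97.0 and 14.7 CPM in KO and at 106 and 7.12 CPM in WT. Bach2, a repressor that holds back plasma-cell differentiation, stood at 173 and 48.1 CPM in KO and at 182 and 37.5 CPM in WT. Prdm1, the driver of that differentiation, stood at 10.9 and 53.5 CPM in KO and at 5.97 and 43.5 CPM in WT.

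By group, 13 of 20 genes of follicular identity were higher and none was lower in both libraries, with medians of 0.78 in KO and 1.10 in WT, against 0.10 and 0.16 over all genes. Over all genes 6.02% were higher and 3.96% lower. Of 17 homing genes 6 were higher in follicular cells, among them Ccr7 (4.28 in both), Cxcr4 (1.84 and 2.46) and P2ry10 (2.09 and 2.85), and 1 was lower, the integrin gene Itgb1 (0.293 and 0.307). Of 22 genes of PI3K and FOXO signalling 5 were higher, among them Foxo1 (1.75 and 2.16), which keeps up homing receptors, and its target Sesn1 (2.78 and 3.59), and 1 was lower, Trib1. Of 13 MHC class II genes 3 were higher, all of the H2-O and H2-E kind, such as H2-Oa at 1.86 and 1.955, which inhibits peptide editing.

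Of 12 inhibitory receptor genes 4 were higher and Ctla4 was lower, beside 6.02% and 3.96% of all genes. Of 19 immediate-early genes 2 were higher and 2 lower. One of the lower was Atf3, at 344 CPM in follicular and 1036 CPM in B-1 cells of KO and at 244 and 1165 CPM in those of WT. The lower genes also held 13 of 17 genes of B-1 identity and 3 of 20 MYC targets, such as Odc1, the first enzyme of polyamine synthesis (0.446 and 0.330). Ahnak2, a scaffold protein, stood at 3.63 CPM in follicular and 54.1 CPM in B-1 cells of KO and at 2.78 and 77.4 CPM in those of WT. S100a4 stood at 70.3 and 259 CPM in KO and 35.6 and 264 CPM in WT. None of the 40 ribosomal genes passed the fold in both libraries, and 1 was lower past it in WT alone.

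Variation among the follicular cells was measured as the variance of the UMI count over its mean after thinning each barcode to 1000 UMIs, which is 1 for Poisson counting error alone and had a median of 1.01 over 5064 genes in either library. The 111 immunoglobulin genes had medians of 5.91 in KO and 6.22 in WT. The other genes with high values were of many kinds. Gm42418 had 3.36 in KO and 5.63 in WT, the nuclear non-coding RNA Malat1 had 2.70 and 3.11, AY036118 had 2.53 and 2.75, and Lars2, a mitochondrial leucyl-tRNA synthetase, had 2.10 and 3.99. Egr1, an immediate-early gene, had 3.29 in KO and 5.59 in WT, and Nr4a1 had 2.27 and 2.01. Vim, the intermediate filament vimentin, had 2.90 and 3.18, and the calcium-binding gene S100a6 had 2.29 and 2.72. Cd74, the invariant chain of MHC class II, had 2.90 and 3.41, and Klf2, which keeps lymphocytes quiescent and recirculating, had 2.15 and 2.31. Ccr7 had 1.70 and 1.80. Lyz2 had 15.6 and 52.6, with most of its UMIs in the few barcodes described above.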

How the data were processed

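The values are UMI counts per gene and barcode, deposited by the authors as filtered matrices for 1 KO and 1 WT expression library, with annotated BCR contigs for the same barcodes. The matrix headers name Cell Ranger 6.1.2, while the submitters' processing notes list Cell Ranger 6.0.1, Seurat 4.3.0 and mm39; a 3' kit is named in the labels for both kinds of library. The gene knocked out is not reported here, and no coordinates are given because the sources used here name no annotation. The expression libraries held 103953298 (KO) and 81817635 (WT) UMIs over all barcodes, with at least 500 UMIs per barcode.

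Counts were summed over the chosen barcodes of a library and divided by their UMI total. Ratios of counts have exact conditional binomial intervals, shares exact Clopper-Pearson intervals and share ratios log-normal ones, all at 95%; reads are UMI-collapsed, and the intervals cover counting error only. A gene was called when it had at least 20 CPM in either library and a ratio of at least 1.5 or at most 0.667. The 9 genes of the rule were left out. Named genes had at least 50 CPM in either library; the 12 largest ratios in each direction were named (10 between cell groups), plus up to 4 genes per list. Ctla4, Plscr1, Foxo3, Irf9 and Hsph1, all under 50 CPM in both libraries, were named because they were list members past the fold. Ass1, several genes compared between cell groups and the genes described under markers, variation and clones of 2 were chosen otherwise, some after their values were seen. The members, gene lists and tests were chosen with earlier results of these data known. T cells were barcodes with at least 3 Cd3 UMIs and no Cd79a UMI.

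Doublets were left in for the main values. Scrublet (scanpy 1.11.5) was an alternative with the highest scores removed at 0.8% per 1000 barcodes, because its automatic threshold called 12.2% of KO and 0.03% of WT barcodes. The other alternatives were leaving out barcodes with 2 heavy chains, thinning to 1000 UMIs, a window of 2000 to 4000 UMIs, other limits for Fcer2a, Cr2 and gene number, 1 barcode per clone, totals without immunoglobulin, mitochondrial and ribosomal genes, and no minimum CPM. Removing other lineages, summing clones of 2 and leaving out clones of 2 or more were added after the data were seen. Scripts were tested on simulated data and ran in Python 3.11.15 with numpy 2.4.6, scipy 1.17.1 and pandas 2.3.3.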

Additional observations from a re-analysis of the deposited data

How the results depend on the processing

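Of 171 re-computed values of the 13 main results, 134 stayed within the limits of the reported value and 37 moved. For genes 1.5-fold higher in KO (58), thinning gave 415, the UMI window 135, 2 Fcer2a UMIs 91, totals without immunoglobulin, mitochondrial and ribosomal genes 100, and no minimum CPM 1151; for genes lower in KO (80), the same settings other than the total gave 610, 253, 153 and 1477, and 1 barcode per clone 132. For low-Cr2 over high-Cr2 cells, the higher genes (96) became 2123 with thinning, 388 in the window, 171 with 1 barcode per clone and 280 with no minimum, and the lower (79) 332, 259, 145 and 495; thinning left only 10 KO and 5 WT high-Cr2 barcodes, and the window 37 and 26. Over B-1 cells, no minimum gave 1339 higher and 813 lower. Lists whose median lay over 0.2 from that of all genes were 3 for KO over WT (1 barcode per clone 1, no minimum 9). For low-Cr2 over high-Cr2 cells there was 1 (Scrublet 3, 2 heavy chains 4, thinning 21, window 2, 2 Fcer2a UMIs 2, 1 per clone 4, no minimum 4, no other lineages 3). The clone-share ratio was 6.45 with clones of 2 summed and had no value without clones. The ratio of member shares was 1.08 with thinning, 0.529 in the window, 0.694 with 2 Fcer2a UMIs, 0.838 with 1000 genes, 0.844 with 1 per clone and 0.806 without clones. The cause of these moves was not tested, except that thinning and the window leave fewer UMIs.

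Among 191 results on named genes, 2234 values stayed, 381 moved and 21 reversed. KO over WT reversed with thinning for Anxa2 (0.869) and Lyz2 (10.5); in the window for Fn1 (9.55), Lyz2 (6.76), Prg4 (5.97) and Slpi (4.47); at Cr2 0 for Cxcl2 (1.49), Fn1 (1.61), Lyz2 (1.54), Slpi (6.29) and the macrophage list median (0.63); and without other lineages for Fn1 (10.4), Lyz2 (4.83), Prg4 (6.04) and Slpi (4.64). Low-Cr2 over high-Cr2 reversed for Cd209a (1.05) and Tmem176b (1.45) in KO without other lineages, Crip2 in KO (0.435) and Klf3 in WT (0.906) with thinning, Fcer1g in KO in the window (2.89), and Il1b in KO with clones summed (1.18) or left out (6.68). No paired analysis was possible because each genotype had 1 library.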

Other observations

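B cells with neither Fcer2a nor a B-1 gene lay between the follicular and B-1 cells in their receptors. IgD was the heavy chain of 3.76% of them in KO and 3.22% in WT, lambda light chains were on 12.8% and 10.3%, and IGHV11-2 or IGHV12-3 on 5.09% and 7.85%. Genes of granulocytes and mast cells had a UMI in 8 KO (0.321%) and 64 WT (5.58%) follicular barcodes, and no barcode reached 5 UMIs of them.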
